A study of Homo sapiens with 2 samples.

Results

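The 10 genes described here are the ERK feedback genes ETV4, ETV5, SPRED1, SPRED2, SPRY2, SPRY4, DUSP4, DUSP5, DUSP6 and PHLDA1, in SAS, a cultured line derived from a human squamous carcinoma of the tongue. They were taken by name, and every probe whose platform annotation names exactly 1 gene, that gene being a member, was used. This gave 15 probes of 24740 that name a single gene, and 10 genes of 18336. The genes were selected on the difference between these same samples, shATMIN minus neo, so their values are a description. There was 1 sample of cells with a short hairpin RNA that targets ATMIN (shATMIN) and 1 control sample that the labels call neo. The labels give the same transfection and selection text for both: hairpin plasmid, lipid reagent, puromycin at 3 µg/mL begun after 24 h in medium with 10% serum, then growth of resistant clones. What the neo cells carried, and whether either sample was a single clone or a pool, is not stated in the sources used here. The study asked whether lowering ATMIN, a zinc finger transcription factor with a role in DNA damage signalling, affects cancer progression. With 1 sample per group no test was possible, no p-value is given, and no difference has a replicate check.

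ERK is the last kinase of the cascade that runs from growth factor receptors through RAS, RAF and MEK. Among the genes that active ERK switches on are its own inhibitors: SPRY and SPRED proteins act near RAS and RAF, and DUSP phosphatases remove the activating phosphates from ERK. Because their transcripts follow ERK activity closely, these genes are often used as a readout of the pathway in carcinoma cells.

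Values are probe intensities, and differences are shATMIN minus neo of log2(intensity + 1), so that -1 is 2-fold lower in shATMIN. Each gene is represented by its brightest probe, and a gene was compared where its mean level reached the 40th percentile of all probes, an intensity of 58.9. ATMIN, the targeted gene, read 61.5 in shATMIN and 105 in neo, a difference of -0.76, with the shATMIN value just above 58.9. Its other probe, at 26.5 in shATMIN and 51.5 in neo, was too dim to compare, so the size of the ATMIN difference is uncertain. Over 12421 compared genes the median difference was -0.16, and 70.7% were lower in shATMIN. That shift depended on scaling: with each sample divided by its 75th percentile the median was 0.07 and 41.2% of genes were lower. The SD between compared probes of a gene was 0.34, from 2973 genes that had more than 1. Of 10 squamous epithelial markers all were compared and 5 were lower in shATMIN, with KRT14 at 2555 in shATMIN and 1284 in neo and TP63 at 2060.4 in shATMIN and 4717 in neo. Of other cell types, PTPRC read 14.0 in shATMIN and 13.5 in neo, and COL3A1 read 2.00 in shATMIN and 2.50 in neo. The fibroblast markers COL1A1, at 423 in shATMIN and 459 in neo, and LUM, at 132 in shATMIN and 131 in neo, were brighter. CD14 read 2602 in shATMIN and 2858 in neo, CD68 read 174 in shATMIN and 272 in neo, CDH5 read 115 in shATMIN and 175 in neo, and TEK read 195 in shATMIN and 148 in neo. Summed intensities were 628 in shATMIN and 667 in neo for 6 fibroblast markers, 2812 and 3164 for 5 leukocyte markers and 597 and 609 for 5 endothelial markers, and none was listed at 0. The part of any marker in the results below was not tested, and in such bulk RNA fewer cells with a transcript cannot be told apart from less of it per cell.

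In shATMIN 9 of the 10 feedback genes were lower and DUSP6 alone was higher, as deposited, after either kind of scaling (to the 75th percentile, or by quantiles) and with the trend on level taken out. The background share of compared genes lower by sign was 70.7% as deposited, 41.2% with scaling, 49.4% with quantile normalization and 48.5% after removal of the trend. The median of the 10 genes was -0.66, against -0.16 over all compared genes. On brightest probes ETV4 and ETV5 were at least 2-fold lower as deposited, as were 1.34% of compared genes, and no member was at least 2-fold higher, where 0.459% of compared genes were. No member was 2-fold lower with scaling to the 75th percentile, by quantiles or with the trend taken out, where 0.29%, 0.403% and 0.354% of compared genes were. At 1.5-fold, 5 of the 10 were lower (ETV4, ETV5, SPRED1, SPRED2 and DUSP5), and the background was 12.2%. Since the members were chosen with this contrast known, nothing is read from these shares.

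**Figure D1:**
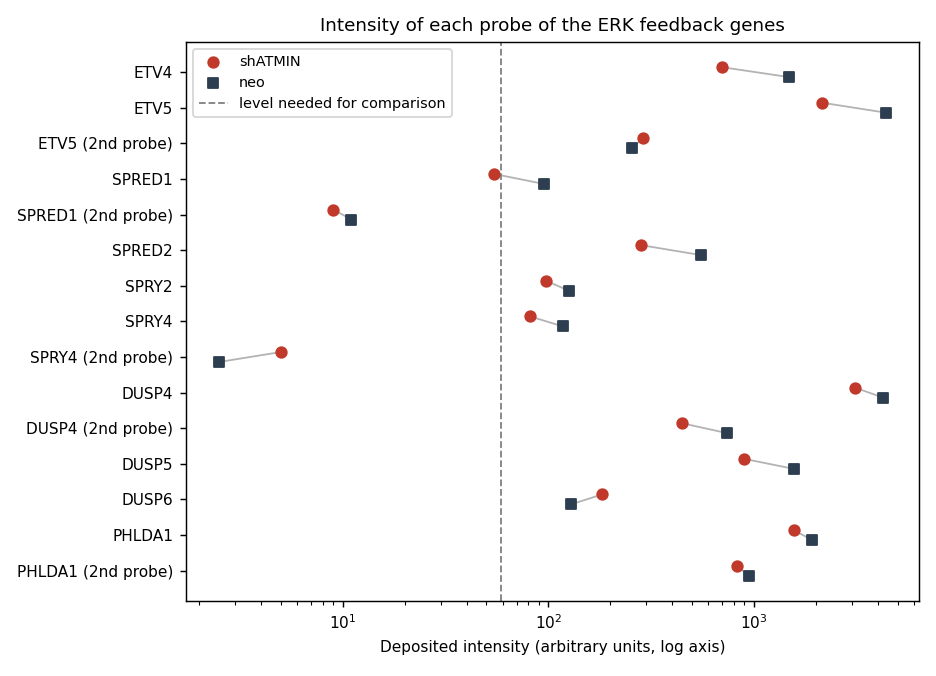
Deposited intensity (log axis) of each of the 15 probes, with shATMIN as red circles drawn above neo as dark squares, and the level needed for comparison as a dashed line. The shATMIN value lies left of the neo value except for DUSP6, the other probe of ETV5 and the very dim other probe of SPRY4.

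**Figure D2:**
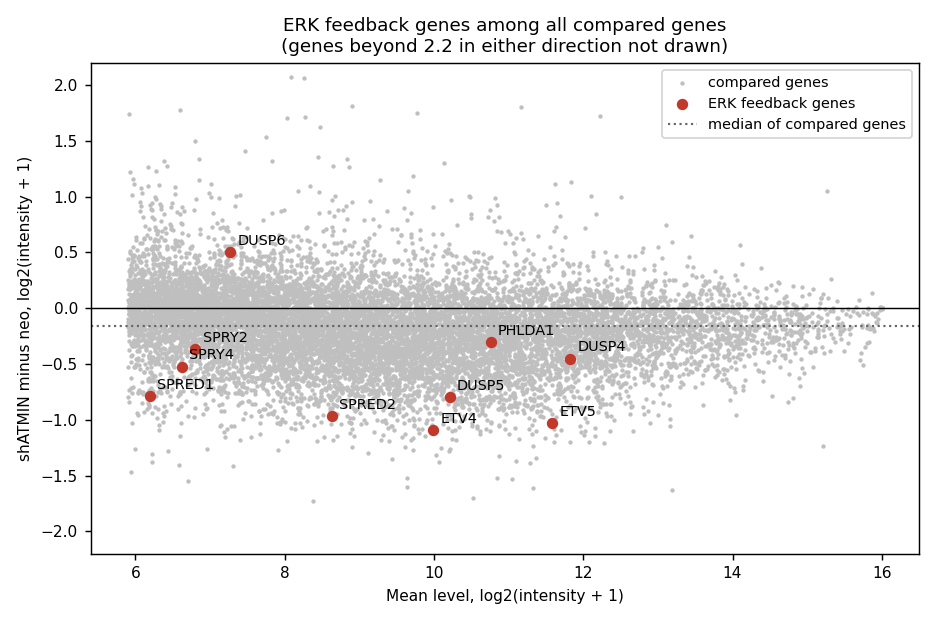
Difference (shATMIN minus neo, log2 units) against mean level (log2 intensity) for the compared genes in grey and the 10 feedback genes in red, leaving 7 genes beyond 2.2 in either direction undrawn. ETV4, ETV5 and SPRED2 lie in the lower part of the cloud at -0.97 or below, PHLDA1 lies near its middle, and DUSP6 at 0.50 lies in its upper part.

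ETV4 and ETV5 encode ETS transcription factors of the PEA3 group, which are induced by FGF and ERK signalling and carry it on to further genes. ETV4 read 697 in shATMIN and 1484 in neo, a difference of -1.09, or 2.13-fold lower. The ETV4 difference rests on a single probe. Of compared genes 0.692% were lower by at least as much, but ETV4 was chosen with this contrast known, so nothing is read from that share. Its difference was -0.86 with scaling to the 75th percentile and -0.81 after removal of the trend on level, in each case short of 2-fold.

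ETV5 read 2150.4 in shATMIN and 4397 in neo on its brighter probe, a difference of -1.03, or 2.04-fold lower. The other ETV5 probe read 288 in shATMIN and 254 in neo, a difference of 0.18 in the opposite direction. The 2 probes were thus 1.21 apart on the log2 scale, and their mean was -0.43, so the ETV5 call rests on the brighter probe. ETV1, which encodes the remaining PEA3 factor, was not compared, with 18.0 in shATMIN and 20.0 in neo on its brighter probe.

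SPRED1 and SPRED2 encode membrane-bound inhibitors that act on RAS and RAF, and SPRED1 does so by bringing the RAS-inactivating protein neurofibromin to the membrane. SPRED2 read 284 in shATMIN and 555 in neo, a difference of -0.97, or 1.95-fold lower. SPRED1 read 54.5 in shATMIN and 95.0 in neo, a difference of -0.79. Both genes were lower by more than the SD of 0.34 between probes of a gene, but that SD does not measure spread between samples. The members were chosen on this difference and each SPRED gene rests on a single compared probe, so nothing is read from that. SPRED1 in shATMIN lay below 58.9, so the size of its difference is uncertain. The other SPRED1 probe was too dim to compare, at 9.00 in shATMIN and 11.0 in neo. SPRED3, a paralogue looked up after the member values were seen, read 63.0 in shATMIN and 67.5 in neo.

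SPRY2 and SPRY4 encode Sprouty proteins, which block the signal between the receptor and RAF and share with the SPREDs a cysteine-rich domain. SPRY4 read 81.5 in shATMIN and 117 in neo, a difference of -0.52. SPRY2 read 97.5 in shATMIN and 126 in neo on its only probe, a difference of -0.37. Both were lower in shATMIN, SPRY2 by little more than the SD between probes of a gene, and with scaling to the 75th percentile the differences were -0.29 for SPRY4 and -0.13 for SPRY2. The other SPRY4 probe read 5.00 in shATMIN and 2.50 in neo, far below the level needed, and its direction is not read. Of the paralogues, looked up in the same way, SPRY1 read 67.5 in shATMIN and 67.0 in neo, and SPRY3 read 115 in shATMIN and 92.0 in neo.

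The dual-specificity phosphatases split by direction. DUSP5, a nuclear phosphatase that acts on ERK and holds it in the nucleus, read 897 in shATMIN and 1559.7 in neo, a difference of -0.80, or 1.74-fold lower. DUSP4, a nuclear phosphatase of ERK and other MAP kinases, read 3104 in shATMIN and 4246 in neo, a difference of -0.45. Both DUSP4 probes had the same direction, since the other read 448 in shATMIN and 743 in neo, a difference of -0.73. Compared probes shared one direction in 62.8% of the 2973 genes that had more than 1. DUSP6, the cytoplasmic phosphatase most specific for ERK, read 183 in shATMIN and 129 in neo, a difference of 0.50, or 1.42-fold higher. DUSP6 was thus the only member above 0 on its brightest probe, and 2.58% of compared genes were higher by at least as much. The DUSP5 and DUSP6 differences each rest on a single probe. The DUSP6 difference ran between 0.46 and 0.74 over the 8 alternative settings in which it was compared, some of which could not change it.

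PHLDA1 encodes a small protein with a pleckstrin homology-like domain whose transcript is induced by ERK. It read 1559 in shATMIN and 1922 in neo, a difference of -0.30, and its other probe read 826 in shATMIN and 946 in neo, a difference of -0.20. The PHLDA1 probes had one direction, as in 62.8% of genes with more than 1 compared probe. However, 33.6% of compared genes were lower by at least as much, and the difference was -0.03 after removal of the trend on level. Its relative PHLDA2, also an ERK output gene, read 1108 in shATMIN and 2054 in neo, a difference of -0.89.

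**Figure D3:**
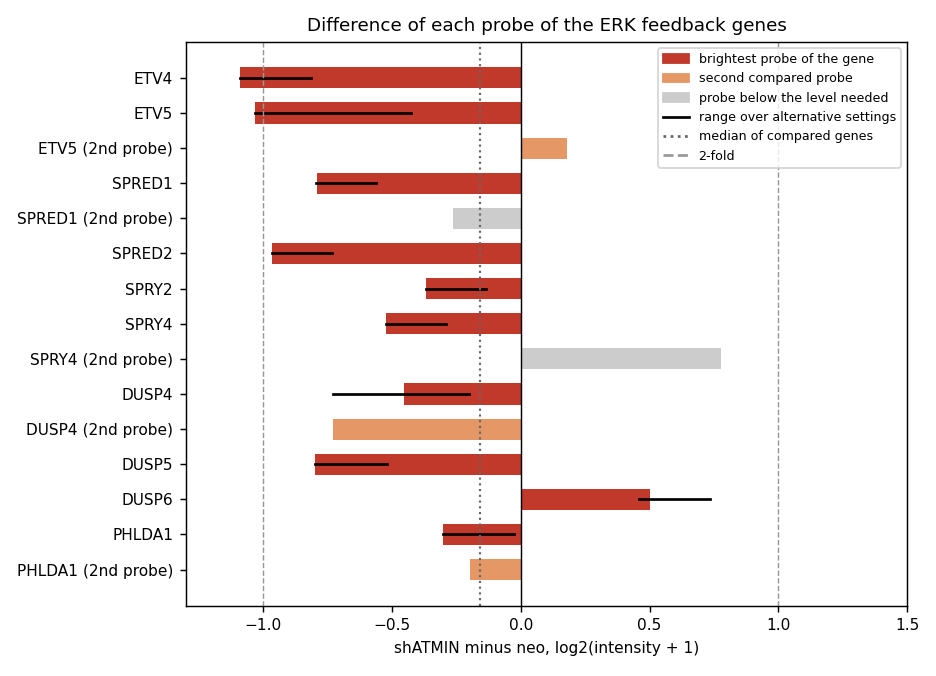
Difference of each probe (shATMIN minus neo, log2 units), with brightest probes in red, other compared probes in orange and probes too dim to compare in grey. Black lines give the range over the alternative settings, in which no brightest-probe gene crossed 0, the dotted line is the median of compared genes, and the dashed lines mark 2-fold.

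The deposited values allow a look at technical spread. Low values fall on a lattice given by averaging 2 whole numbers with nearly equal factors, 0.998 and 1.002 in each sample, and the 2 readings were recovered wherever a single solution existed below an intensity of 2000. Between 300 and 1000 this held for 99.9% of shATMIN and 99.8% of neo values, and with 2 wrong steps, tried as a check, for 5.88% and 27.1% of shATMIN and 9.79% and 28.6% of neo values. Between 1000 and 2000, where the neo value of ETV4 lies, it held for 91.3% of neo values, and with the wrong steps for 11.1% and 56.9%. Of shATMIN values in that range it held for only 40.8%, and with the wrong steps for 4.44% and 35.2%. The readings there are therefore less secure, above all in shATMIN. Whether a pair is the 2 arrays that the labels list is not stated in the sources used here, and such a spread covers no separate cultures. The SD of a reading on the log2 scale was 0.31 in shATMIN and 0.33 in neo below 100, where SPRED1 lies in both samples and SPRY2 and SPRY4 lie in shATMIN. It was 0.13 in shATMIN and 0.15 in neo between 100 and 300, and 0.14 in shATMIN and 0.11 in neo between 300 and 1000.

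Both pairs were recovered for the brightest probe of 6 members, and in none did they overlap. The shATMIN pair lay below the neo pair for ETV4, SPRED1, SPRED2, SPRY2 and SPRY4, as it did in 51.9% of 8471 compared genes, and above it for DUSP6, as in 19.7%. ETV4 had readings of 706 and 689 in shATMIN and 1533 and 1436 in neo, so that the difference between single readings ran between -1.02 and -1.15. For SPRED2 the readings were 281 and 286 in shATMIN and 579.7 and 530.2 in neo. SPRED1 had 52.9 and 56.1 in shATMIN and 91.8 and 98.2 in neo. These 3 genes were separated by far more than the gap within either pair. For SPRED1 both samples lie below 100, where the SD of a reading was 0.31 in shATMIN and 0.33 in neo. The readings are parts of the same values on which the members were chosen, so nothing is read from how far the pairs of any member stood apart. SPRY4 had 84.8 and 78.1 in shATMIN and 125 and 110.2 in neo, and SPRY2 had 97.8 and 97.2 in shATMIN and 129 and 123 in neo. DUSP6 had 156 and 209 in shATMIN and 122 and 135 in neo, the widest shATMIN pair among the resolved compared probes on the log2 scale, and its difference between single readings ran between 0.20 and 0.78. Of the remaining compared probes, the pairs stood apart in the direction of the deposited value for the other probes of ETV5, with 290.5 and 286 in shATMIN and 262 and 247 in neo, of DUSP4, with 450.2 and 446 in shATMIN and 768 and 718 in neo, and of PHLDA1, with 846 and 806 in shATMIN and 974 and 918 in neo. For the brighter ETV5 probe no readings were recovered, so the opposite directions of the 2 ETV5 probes could not be checked in the readings.

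**Figure D4:**
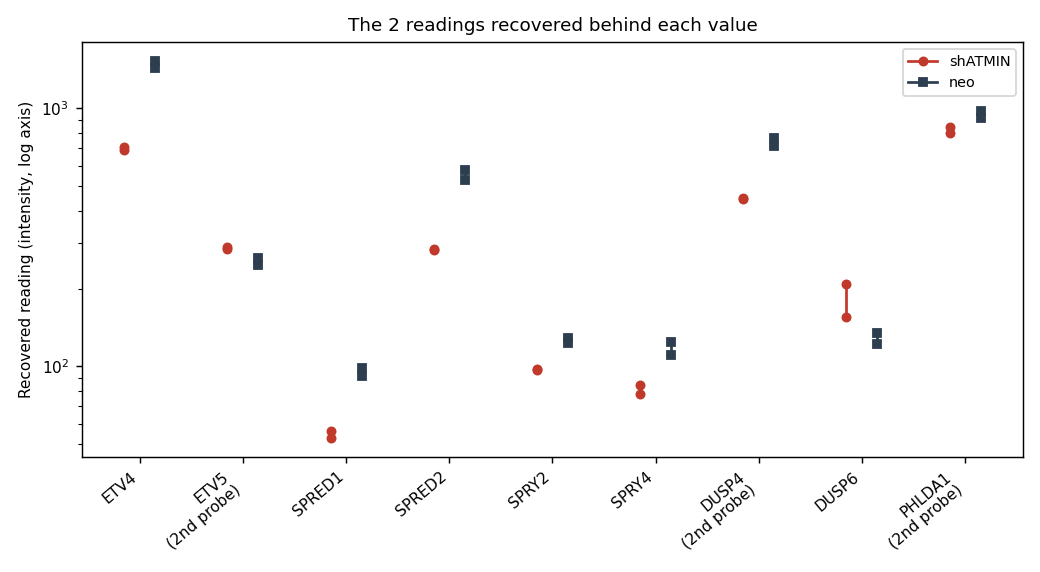
The 2 readings recovered behind each value (intensity, log axis), with shATMIN as red circles left of neo as dark squares, for the compared probes in which both pairs were resolved. DUSP6 and the other ETV5 probe have shATMIN above neo, and the remaining pairs have shATMIN below neo without overlap.

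Promoter sequence from RefSeq (GRCh38.p14) is described for 6 members, in 9 windows of 250 bases before an annotated start. No promoter sequence was held for ETV4, ETV5 and DUSP5. DUSP4 was left out, so nothing is said of its promoter. The windows of DUSP6 and SPRED2 are shown because these are the highest and the lowest in difference of the 6 genes. They lie at chr12:89352502-89352751 for DUSP6 and at chr2:65432600-65432849 and chr2:65366779-65367028 for SPRED2, all on the minus strand, and are written in the direction of transcription. Capitals mark, on either strand, the ETS core GGAA (TTCC on the printed strand) and the octamer bound by CIC, a repressor of ERK target genes that ERK signalling inactivates, in the forms TGAATGAA, TGAATGGA, TCAATGAA and TCAATGGA.
DUSP6: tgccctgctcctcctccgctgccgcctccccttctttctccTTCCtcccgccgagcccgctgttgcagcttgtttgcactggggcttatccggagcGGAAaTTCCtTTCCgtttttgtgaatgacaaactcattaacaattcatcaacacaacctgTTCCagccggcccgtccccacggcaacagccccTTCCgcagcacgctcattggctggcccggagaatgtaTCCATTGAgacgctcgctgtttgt
SPRED2, upstream start: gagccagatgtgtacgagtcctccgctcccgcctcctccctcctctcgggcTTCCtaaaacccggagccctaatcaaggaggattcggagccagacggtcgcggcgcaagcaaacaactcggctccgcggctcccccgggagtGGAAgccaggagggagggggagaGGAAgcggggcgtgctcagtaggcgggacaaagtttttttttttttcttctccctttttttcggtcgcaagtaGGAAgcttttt
SPRED2, downstream start: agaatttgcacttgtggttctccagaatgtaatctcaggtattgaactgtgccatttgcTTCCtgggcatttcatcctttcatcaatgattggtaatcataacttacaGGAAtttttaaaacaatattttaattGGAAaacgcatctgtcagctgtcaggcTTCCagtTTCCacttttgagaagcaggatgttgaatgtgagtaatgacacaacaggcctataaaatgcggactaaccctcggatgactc
The DUSP6 window held 6 ETS cores and the octamer form TCCATTGA, the reverse complement of TCAATGGA. The first base of the octamer lies 24 bases before the start, and the octamer overlaps no ETS core there. The SPRED2 windows held 4 and 5 ETS cores and no octamer. Over 35116 RefSeq promoter windows of the same length 92.7% held the ETS core, with a median of 3 matches, and 3.18% held the octamer. DUSP6 was the only member window of the 9 with the octamer, and all 9 held the ETS core. A match is a description of the letters and says nothing of binding. On the array CIC read 2697 in shATMIN and 2917 in neo on its brighter probe and 86.5 in shATMIN and 82.5 in neo on the other.

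The other genes of the pathway were described in 6 lists, of which 78 genes in all were compared. Of these 62 were lower in shATMIN, where 70.7% of all compared genes were, with a median of -0.36 against -0.16. On brightest probes 1 was at least 2-fold lower, which is near the background of 1.34%, and 0 at least 2-fold higher. With scaling to the 75th percentile 49 of the 78 were lower, against 41.2% of all compared genes, and with the trend on level taken out 54 were, against 48.5%. The same background shares, 70.7% as deposited, 41.2% with scaling, 49.4% by quantiles and 48.5% with the trend taken out, apply to the counts of every list. The lists were drawn up with earlier results of these data known and get no test.

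The receptors and adaptors had a median of -0.34, with 10 of 15 lower, a share no higher than the background of 70.7%, and 8 of 15 with scaling, with a median of -0.11. The adaptor gene CRKL read 2443 in shATMIN and 4676 in neo, a difference of -0.94, though another CRKL probe gave 0.08. GRB2, which links receptors to the RAS activator SOS, stood at -0.70, the receptor gene ERBB2 at -0.65 and FGFR2 at -0.62, with -0.07 on another FGFR2 probe. The list was therefore mixed, and CRKL and FGFR2 rest on 1 probe each. EGFR, named after its values were seen, stood at the list median of -0.34 on its brightest probe, but its other compared probes gave 0.87 and 0.57.

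The cascade itself had a median of -0.53, with 8 of 9 compared genes lower, where 70.7% of all compared genes were. It also had 8 of 9 lower with scaling (background 41.2%), by quantiles (49.4%) and with the trend taken out (48.5%). MAP2K1, which encodes the kinase MEK1, read 3044 in shATMIN and 5322 in neo, a difference of -0.81. SHOC2, a scaffold that helps to activate RAF, stood at -0.64, HRAS at -0.58 and MAPK3, which encodes ERK1, at -0.55. None of the 9 reached 2-fold on its brightest probe, but YWHAZ, which encodes a 14-3-3 protein that binds RAF, stood at -0.44 there and at -1.07 on another compared probe. KSR1, a scaffold of the cascade named, like YWHAZ, after its value was seen, was the exception in direction, at 0.16.

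Effector kinases and ETS factors had a median of -0.49, with 11 of 13 lower (background 70.7%), 8 of 13 with scaling (41.2%) and 8 of 13 with the trend taken out (48.5%). RPS6KA1, which encodes the ERK-activated kinase RSK1, read 1630.0 in shATMIN and 3018 in neo, a difference of -0.89, with -0.80 on its other compared probe. ETV6, an ETS repressor, stood at -0.79, the kinase gene RPS6KA4 at -0.74 and ETS1 at -0.61, with -0.32 on the other compared ETS1 probe.

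The other negative regulators had a median of -0.33, with 10 of 14 lower, a share near the background of 70.7%, and 8 of 14 with scaling (41.2%). The count includes PEBP1, which was at the top of the scanner scale in both samples, so that its direction cannot be read. NF1, which encodes neurofibromin, read 591 in shATMIN and 1223 in neo, a difference of -1.05, and its other compared probe gave -0.35. CBL, a ubiquitin ligase of receptors, stood at -0.89 on 1 probe and -0.04 on another, and RASSF1 at -0.54. The receptor phosphatase gene PTPRJ stood at 0.42, with 0.22 and 0.02 on its other compared probes. On brightest probes NF1 was thus the sole gene of the 6 lists at 2-fold as deposited, and with scaling it stood at -0.81.

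The 10 other dual-specificity phosphatases had a median of -0.24, which is 0.08 below that of all compared genes, with 8 lower (background 70.7%) and 5 with scaling (41.2%). DUSP1, a phosphatase of several MAP kinases, read 12962 in shATMIN and 21837 in neo, a difference of -0.75. DUSP7 stood at -0.40, with -0.48 on its other compared probe, DUSP2 at -0.28 and DUSP9 at -0.28.

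Further ERK output genes had a median of -0.49, with 15 of 17 lower (background 70.7%) and 12 of 17 with scaling (41.2%). CCND1, which encodes cyclin D1, read 20562 in shATMIN and 36852 in neo, a difference of -0.84. PHLDA2 stood at -0.89, EREG, which encodes the EGF receptor ligand epiregulin, at -0.85 and the survival gene MCL1 at -0.78. None of the 17 reached 2-fold. The exceptions in direction, named after their values were seen, were the early response gene IER2, at 0.16, and UPP1, which encodes a uridine phosphorylase, at 0.38. The other compared IER2 probe gave 0.03.

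**Figure D5:**
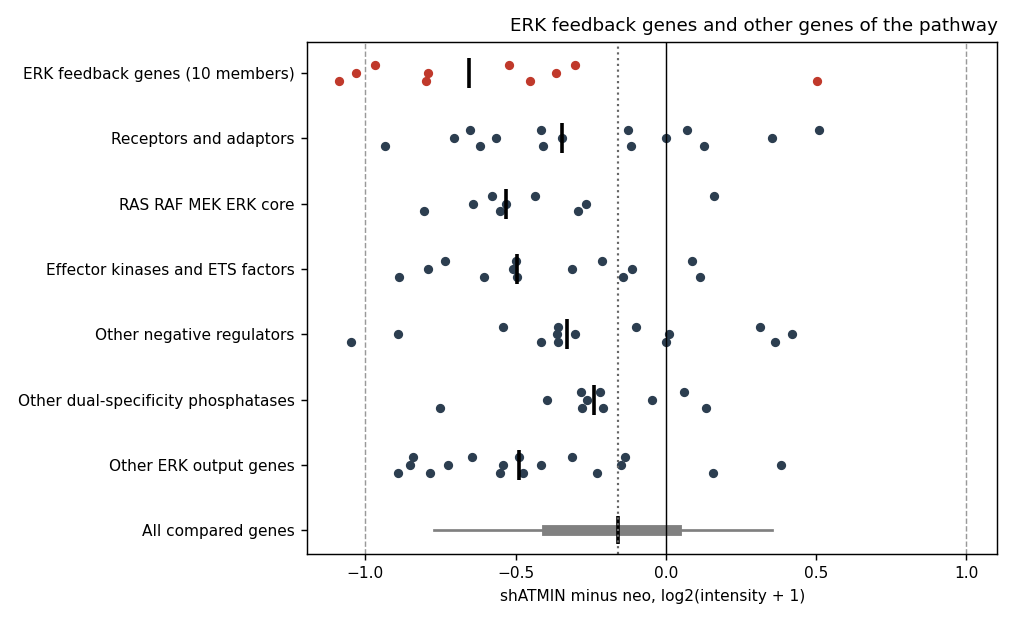
Difference of each compared gene (shATMIN minus neo, log2 units) for the 10 feedback genes in red and the 6 other lists in dark blue, with black ticks at list medians. For all compared genes the tick is the median, the bar the middle 50% and the line the middle 90%, the dotted line continues their median of -0.16, and dashed lines mark 2-fold.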

How the data were processed

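Total RNA of 1 shATMIN and 1 neo sample was amplified and labelled with Cy5 for 1-colour arrays, per the labels' protocols, which list 2 arrays per sample. The authors deposited 1 intensity for each of 31741 probes and sample, on a linear scale as read from the values. Scanner, background correction, combination of arrays and normalization are not stated in the sources used here. The number of arrays limits the precision.

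Probe names came from the platform annotation, updated through a RefSeq gene table of GRCh38.p14 (24740 probes named 1 gene, 977 several, 6024 none, and 1948 symbols were updated). Values below 0 were set to 0, and log2(intensity + 1) understates the differences of dim genes. Each compared gene was represented by its brightest probe. The members and lists were chosen with earlier results of these data known. All members with every probe, ATMIN, and up to 4 compared genes of each list with the greatest absolute difference were named, and examples beyond that rule were chosen after their values were seen.

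Readings a and b were recovered by fitting each deposited intensity as a weighted sum of 2 whole numbers, within a tolerance of 2e-05 or 1e-07 of the value if larger, and kept where unique. The calculations were tested on simulated data: for shATMIN against neo over 12437 genes, 199 genes given a difference of -1.5 were all called, and for neo all unique pairs were right. The simulated noise had an SD of 0.1 and the planted difference was larger than that of any member, so this checks the calculation only. Between 1000 and 2000, 74.8% of simulated pairs were unique, with levels taken from neo only. Alternatives covered scaling, trend on level (loess, span 0.3), pseudocount, dim filter, probe choice, the top of the scale and the size rule. Python 3.11.15, pandas 2.3.3, NumPy 2.4.6, statsmodels 0.14.6 and matplotlib 3.10.9 were used.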

Additional observations from a re-analysis of the deposited data

How the results depend on the processing

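Over 9 alternative settings the gene differences kept their direction in all 86 gene-by-setting values, 78 lower and 8 higher, with 4 genes (SPRED1, SPRY2, SPRY4 and DUSP6) not compared under the 60th percentile dim filter. Many of these values could not differ. The dim filter and top-of-scale settings only add or drop probes, and left every compared member value unchanged. The probe-choice settings could change only members with more than 1 compared probe. The median of the members was -0.43 with scaling to the 75th percentile, -0.52 with quantile normalization and -0.50 after removal of the trend on level, where the median of all compared genes was 0.07, 0.002 and 0.01 in place of -0.16, and -0.88 with the 60th percentile filter, where 6 members were left. The count of members at least 2-fold lower (2 as deposited) was 0 with scaling, 0 with quantile normalization and 0 after removal of the trend. It was 1 with probes averaged per gene, because the ETV5 probes disagree, and 5 at the looser rule of 1.5-fold. Among single genes only ETV5 with the mean of its probes, at -0.43, moved by more than the SD between probes. No paired analysis was possible because each group has 1 sample. Values in shATMIN near or below 58.9 limit the reading of SPRED1 and ATMIN, and no value covers the spread between cultures or clones.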
